A study of Mus musculus with 12 samples.

Results

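The 9 genes described here encode the 3 TGF-beta ligands (Tgfb1, Tgfb2, Tgfb3), their 3 receptors (Tgfbr1, Tgfbr2, Tgfbr3), the inhibitory Smad7 and the latent TGF-beta binding proteins Ltbp1 and Ltbp2. They were taken by symbol from an expression table of 16970 genes, and all 9 were found. TGF-beta is secreted in a latent form that binding proteins hold in the extracellular matrix until integrins or proteases release it. The free ligand joins the type II and type I receptors, which phosphorylate Smad2 and Smad3, and Smad7 is induced as a brake on the type I receptor. In injured liver TGF-beta is the best known signal that turns hepatic stellate cells into collagen-producing myofibroblasts, and it restrains hepatocyte growth.

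Liver polyA RNA was sequenced in 12 mouse libraries, in 4 groups of 3, from 2 models of cholestasis, in which bile is retained in the liver. In the BDL group the bile duct was ligated for 7 days, and in the BDL_H group the same surgery was followed, after a wait of 3 days, by 4 days of the bile acid hyodeoxycholic acid (HDCA) at 100 mg/kg. The MDR and MDR_H titles were read as the Abcb4-/- mice, the one other model that the series description names. Abcb4 is the transporter that moves phosphatidylcholine into bile. MDR_H mice were 60 days old at the start and received HDCA at 100 mg/kg for 21 days. No age is given for BDL, BDL_H and MDR, so age may differ between groups. The sources used here do not give strain, sex, vehicle or the number of mice behind a library, so p-values measure the spread between libraries, and that spread may be technical. No value is set against a healthy liver, because unoperated and wild-type mice were not analysed here. MDR and BDL differ at once in genotype, surgery and the course of disease, and these cannot be told apart. The Y-linked gene Ddx3y was at 9.35 FPKM or more in each of the 6 BDL-model libraries and in 1 of 6 MDR-model libraries, so sex is nearly confounded with the model and the part of each cannot be told apart.

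Before the results, 3 facts on the libraries bear on them. Abcb4 itself was not low in the libraries labelled MDR and MDR_H, at 129 to 181 FPKM (fragments scaled to gene length and library depth) against 52.8 to 178 in BDL and BDL_H, so the genotype rests on the titles. The Y-linked Ddx3y was at 9.35 to 10.9 FPKM in the 6 BDL-model libraries and 10.5 in MDR replicate 1, and between 0 and 0.0052 in the other 5 MDR-model libraries. BDL replicate 1 and BDL_H replicate 2 stood apart within their model, with a median log2(FPKM + 1) over the tested genes of 2.49 and 2.56 against 2.81 to 2.88 in the other 4 BDL-model libraries. Counts of members and of list genes called between the models are given with and without this pair. The reads behind the 9 genes ran from 28 for Tgfb2 in its lowest library to 4538 for Tgfbr2 in its highest, of 34260782 to 40427855 reads per library.

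Promoter sequences are shown for a ligand that was not called between the models (Tgfb1), for one that was (Tgfb2), and for the gene with the largest difference (Ltbp2). Each is the 250 bases before the RefSeq start in GRCm38.p6, written 5′ to 3′ on the strand of the gene. Capitals mark CAGAC, the box that Smad proteins bind, and GGGCGG, the GC box of Sp and Klf factors, each searched on both strands, so that GTCTG and CCGCCC are matches too. No match overlapped another. The 3′ end of the Ltbp2 window lies inside the longer GENCODE M21 gene model.

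Tgfb1, chr7:25686752-25687001, plus strand: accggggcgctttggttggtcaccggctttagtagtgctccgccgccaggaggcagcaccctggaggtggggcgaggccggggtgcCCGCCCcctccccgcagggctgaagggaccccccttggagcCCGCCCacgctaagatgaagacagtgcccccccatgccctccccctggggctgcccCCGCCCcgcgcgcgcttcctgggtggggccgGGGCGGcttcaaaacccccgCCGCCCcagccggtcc

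Tgfb2, chr1:186705990-186706239, minus strand: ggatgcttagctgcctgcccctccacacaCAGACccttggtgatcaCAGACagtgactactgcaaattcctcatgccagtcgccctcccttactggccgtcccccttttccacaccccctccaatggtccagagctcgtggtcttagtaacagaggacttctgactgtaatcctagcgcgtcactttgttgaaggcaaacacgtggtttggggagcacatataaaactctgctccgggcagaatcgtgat

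Ltbp2, chr12:84876492-84876741, minus strand: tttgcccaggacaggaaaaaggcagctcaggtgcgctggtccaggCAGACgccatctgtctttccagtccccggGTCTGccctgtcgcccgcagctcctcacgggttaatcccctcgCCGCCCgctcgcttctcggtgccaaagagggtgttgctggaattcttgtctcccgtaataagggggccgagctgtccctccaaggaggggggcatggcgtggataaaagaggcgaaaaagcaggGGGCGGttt

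The Tgfb1 window held 5 GC boxes and no CAGAC, with 75.2% G and C. The Tgfb2 window held 2 CAGAC and no GC box, with 53.6% G and C, close to the median of 52.4% over 32851 promoters of the same length. Ltbp2 held 2 of each at 61.6%. Of all promoters, 42.2% held CAGAC and 32.7% held GGGCGG, so these matches are common letters and not evidence of a bound site. The AP-1 motif TGANTCA, present in 6.75% of all promoters, was in none of the windows of the 6 members with an entry (Tgfb1, Tgfb2, Tgfbr1, Tgfbr2, Ltbp1, Ltbp2).

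Between the untreated models the TGF-beta genes differed widely. Tgfb2, Tgfb3, Ltbp1, Ltbp2 and all 3 receptors were higher in MDR than in BDL, by 1.84-fold (Tgfbr1) to 10.8-fold (Ltbp2) as ratios of mean FPKM, whereas Tgfb1 and Smad7 did not pass the test. That makes 7 of 9 called higher and 0 lower, where 15.1% of the 10805 genes tested were called higher and 1.07% lower. HDCA changed no member in either model at an adjusted p under 0.05. In the treated models 2 of 9 were called higher in MDR_H than in BDL_H, Tgfb3 and Ltbp2, against 7.36% of genes tested higher and 0.935% lower. Tgfb2, Tgfb3, Ltbp1 and Ltbp2 reached the filter of 1 FPKM in 3 libraries only through the MDR-model libraries, so they had to differ to be tested, and the counts over the 9 are a description and no support. The same holds for the single tests of these genes between the models. The alternatives given below keep this filter, except the fits without a filter or with a higher one. The other 5 members pass in BDL-model libraries alone, and 3 of them, the receptors, were called higher in MDR.

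**Figure D1:**
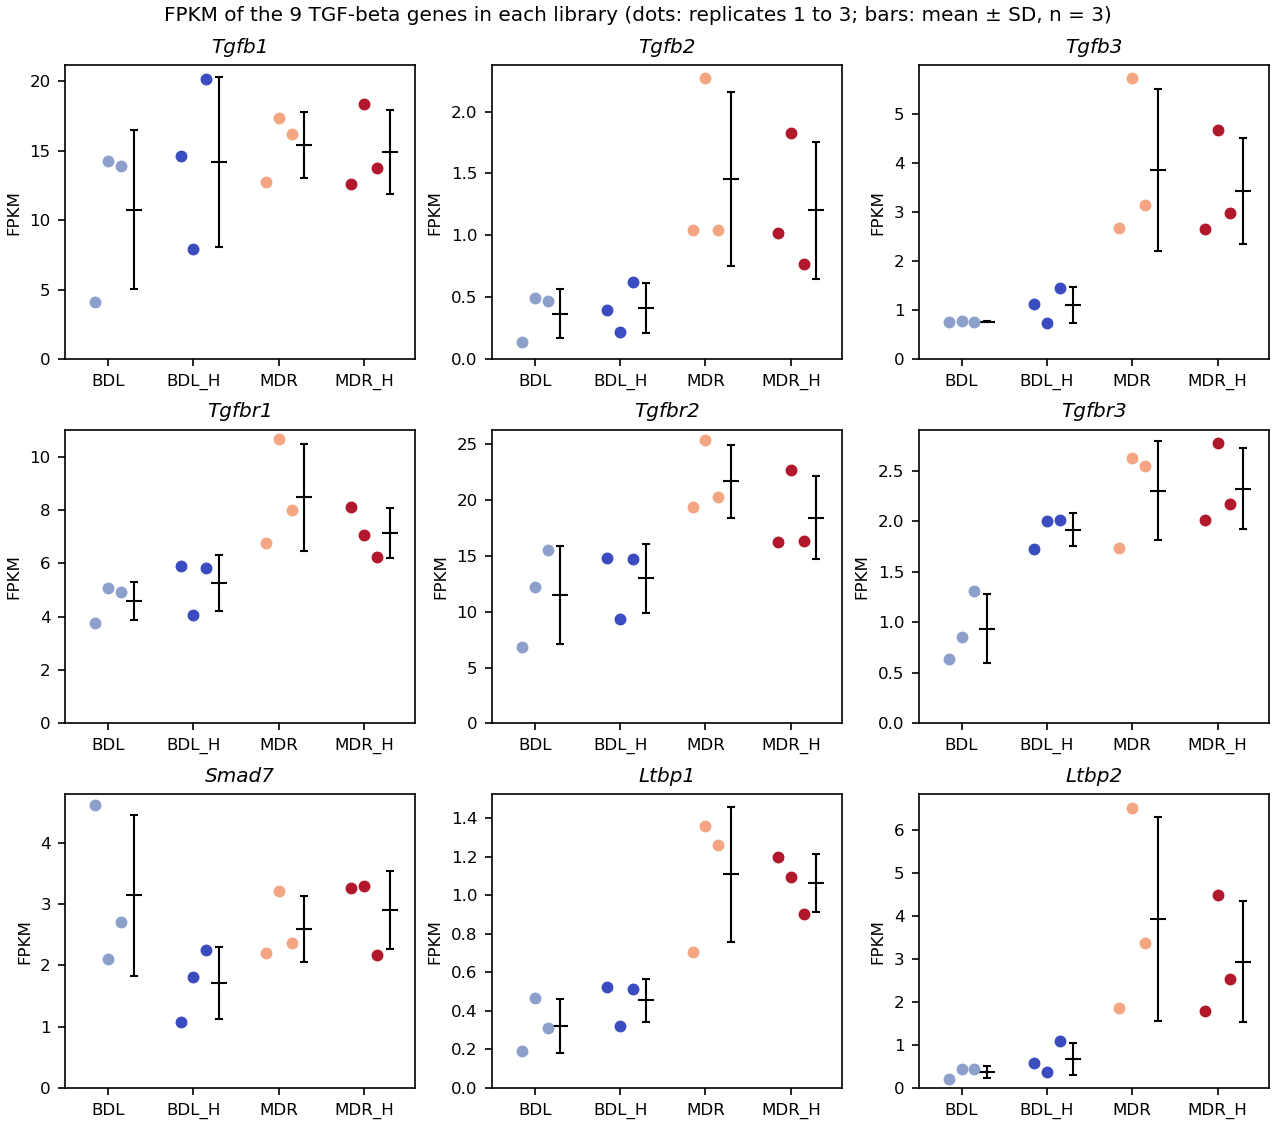
FPKM of the 9 genes in each library, by group, with points for replicates 1 to 3 and bars for the mean ± SD (n = 3), each panel on its own linear axis from 0. Tgfb3 and Ltbp2 lie between 0.746 and 0.767 FPKM and between 0.199 and 0.449 FPKM in BDL, and above 2.6 and 1.7 FPKM in the MDR-model libraries.

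Tgfb1 (chr7:25687002-25705077, plus strand, GRCm38 with GENCODE M21 for all members) encodes the ligand with the highest level in liver here. It was at 4.12, 14.3 and 13.9 FPKM in BDL, 14.6, 7.92 and 20.2 in BDL_H, 12.8, 17.3 and 16.2 in MDR and 12.6, 18.4 and 13.7 in MDR_H. The lowest BDL and BDL_H values are the libraries that stand apart, and the other 10 libraries lie between 12.6 and 20.2. MDR exceeded BDL by 0.63 ± 0.40 (SE) in log2(FPKM + 1), with a 95% interval of -0.25 to 1.52 and an adjusted p of 0.276 by limma. Without BDL replicate 1 and BDL_H replicate 2 that difference was 0.11. The interval does not show that Tgfb1 is equal in the models, only that this spread cannot tell them apart.

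Tgfb2 (chr1:186622792-186705989, minus strand) encodes a ligand that depends on the co-receptor Tgfbr3 for strong binding to the type II receptor. It was at 0.137, 0.494 and 0.470 FPKM in BDL, 0.395, 0.217 and 0.622 in BDL_H, 1.05, 2.27 and 1.05 in MDR and 1.02, 1.83 and 0.765 in MDR_H. Every MDR-model library lay above every BDL-model library. The MDR mean was 3.96-fold the BDL mean, and the difference of 0.82 ± 0.23 on the log2 scale had an adjusted p of 0.0333. It held in 12 of 21 alternatives, and missed the threshold at an adjusted p of 0.0977 without BDL replicate 1 and 0.207 after quantile normalization. Tgfb2 passed the filter only through MDR-model libraries, so that count is no support. MDR_H against BDL_H gave 0.62 ± 0.23, adjusted p = 0.102.

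Tgfb3 (chr12:86056745-86079041, minus strand) encodes the ligand linked with scar-free repair in skin. In BDL it was nearly level at 0.746, 0.767 and 0.761 FPKM, and BDL_H held 1.12, 0.733 and 1.45. MDR libraries were at 2.68, 5.75 and 3.15 and MDR_H libraries at 2.65, 4.67 and 2.98, so the lowest MDR-model library was above the highest BDL-model library. The log2 difference was 1.41 ± 0.23 between untreated models (5.09-fold in mean FPKM, adjusted p = 0.00432) and 1.06 ± 0.23 between treated models (3.12-fold, adjusted p = 0.0250). On recovered reads with limma-voom, which adds no pseudocount of 1 FPKM, these were 1.97 and 1.39. Between untreated models Tgfb3 was called in all 21 alternatives that tested it, with an adjusted p of at most 0.0301. Nearly all of these share the filter that Tgfb3 passed only through MDR-model libraries, so the count is no support. Between treated models it was lost without BDL_H replicate 1, BDL_H replicate 2, MDR_H replicate 2 or MDR_H replicate 3, at adjusted p of 0.0561 to 0.0847.

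The mix of ligand transcripts differed with the levels. Tgfb1 made up 82.4 to 91.9% of the summed FPKM of the 3 ligands in the 6 BDL-model libraries and 68.4 to 79.4% in the 6 MDR-model libraries. Tgfb3 held 4.94 to 14.9% against 15.4 to 22.7%, and Tgfb2 2.44 to 3.18% against 4.37 to 8.95%. These shares are taken within a library and do not move with its scaling. They do depend on the gene lengths behind FPKM. For Tgfb1 the values imply 2200 bases, against 5042 exonic bases in GENCODE M21. With the longer length Tgfb1 would hold a smaller share in every library. The models do not overlap in any of the 3 shares, and BDL replicate 1, at 14.9% Tgfb3, comes closest to the MDR-model range. HDCA groups lay beside their untreated groups, with Tgfb3 at 8.30 ± 5.72% (SD, n = 3) in BDL and 7.25 ± 0.91% in BDL_H, and 18.1 ± 3.97% in MDR and 17.4 ± 1.26% in MDR_H.

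**Figure D2:**
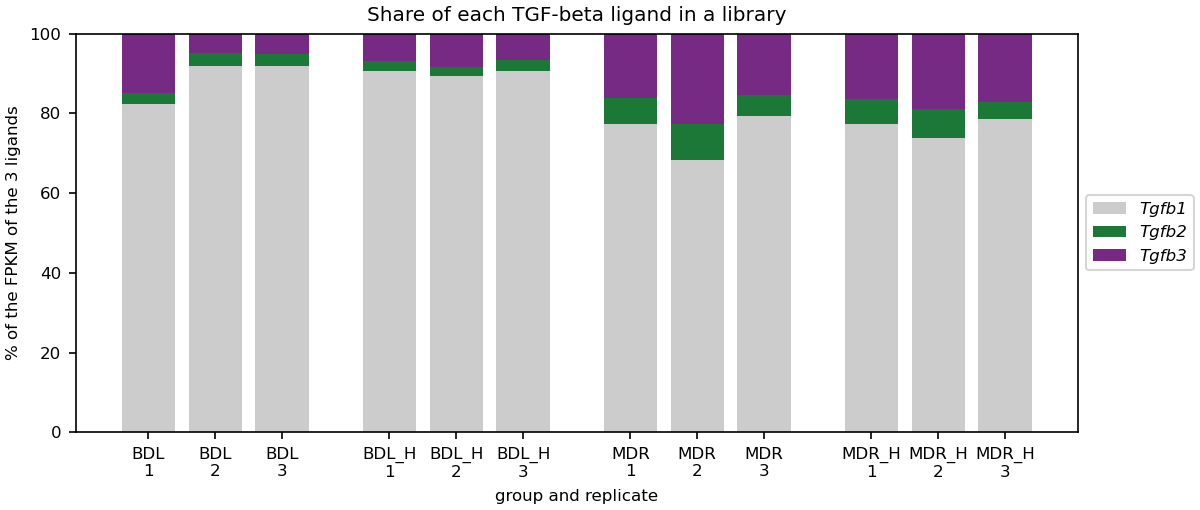
Stacked bars of the percent of the summed Tgfb1, Tgfb2 and Tgfb3 FPKM that each ligand holds, one bar per library, on an axis from 0 to 100%. Tgfb1 takes at least 82.4% in each BDL-model library and at most 79.4% in each MDR-model library.

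Both latent binding proteins were called higher in MDR, Ltbp2 with the largest and Ltbp1 with the smallest difference in log2(FPKM + 1) of the 7 called members. That scale compresses low genes. As a ratio of mean FPKM, Ltbp1 at 3.42-fold exceeded Tgfbr1 (1.84), Tgfbr2 (1.88) and Tgfbr3 (2.46). Ltbp1 (chr17:75005568-75392512, plus strand) encodes a protein that is bonded to the latent ligand and anchors it in the matrix. It was at 0.189, 0.470 and 0.313 FPKM in BDL, 0.524, 0.324 and 0.515 in BDL_H, 0.708, 1.36 and 1.26 in MDR and 1.2, 1.09 and 0.902 in MDR_H. The models do not overlap. Ltbp1 was higher in MDR than in BDL by 0.66 ± 0.14 on the log2 scale (3.42-fold in mean FPKM, adjusted p = 0.0137), and the treated models gave 0.51 ± 0.14 with an adjusted p of 0.0532. The untreated call held in 17 of 21 alternatives. Ltbp1 passed the filter only through MDR-model libraries, so this count is no support. Quantile normalization brought the untreated difference to 0.22 and its adjusted p to 0.251.

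Ltbp2 (chr12:84783212-84876532, minus strand) encodes the family member that does not bind latent TGF-beta and serves elastic and microfibril assembly. BDL libraries held 0.199, 0.449 and 0.442 FPKM, and BDL_H libraries 0.582, 0.366 and 1.08. MDR libraries held 1.86, 6.51 and 3.38, and MDR_H libraries 1.78, 4.49 and 2.54. The MDR-model values all lie above the BDL-model values, and within each of MDR and MDR_H replicate 2 is the highest, as it is for Tgfb2 and Tgfb3. The log2 difference was 1.74 ± 0.33 untreated (10.8-fold in mean FPKM, adjusted p = 0.00775) and 1.2 ± 0.33 treated (4.34-fold, adjusted p = 0.0480). The untreated call held in all 21 alternatives that tested it, with an adjusted p of at most 0.0354. Nearly all of these share the filter that Ltbp2 passed only through MDR-model libraries, so the count is no support. The treated call did not hold under median-of-ratios scaling (adjusted p = 0.0593), and 14 of 21 alternatives left it above the threshold.

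Among the receptors the signalling pair was abundant and the co-receptor low. Tgfbr2 (chr9:116084293-116175360, minus strand), the type II kinase that binds ligand first, was at 6.82, 12.2 and 15.5 FPKM in BDL, 14.8, 9.38 and 14.7 in BDL_H, 19.3, 25.3 and 20.2 in MDR and 16.2, 22.7 and 16.3 in MDR_H. Its MDR and BDL libraries do not overlap, and BDL replicate 1 is the lowest of the 12. The difference of 0.91 ± 0.26 (1.88-fold, adjusted p = 0.0397) lay close to the threshold. It was above it in 15 of 22 alternatives, among them median-of-ratios scaling (adjusted p = 0.0699), and without BDL replicate 1 (0.103) or MDR replicate 1 (0.0597). Treated models gave 0.49 ± 0.26, adjusted p = 0.251.

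Tgfbr1 (chr4:47353222-47414931, plus strand) encodes the type I kinase that phosphorylates Smad2 and Smad3. It was at 3.78, 5.09 and 4.92 FPKM in BDL, 5.91, 4.06 and 5.83 in BDL_H, 6.75, 10.7 and 8.00 in MDR and 8.10, 7.07 and 6.23 in MDR_H. MDR was above BDL in every library, by 0.75 ± 0.18 on the log2 scale (1.84-fold, adjusted p = 0.0209), and the call held in 18 of 22 alternatives. Treated models gave 0.38 ± 0.18, adjusted p = 0.192, with the lowest MDR_H library at 6.23 and the highest BDL_H library at 5.91.

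Tgfbr3 (chr5:107106570-107289629, minus strand) encodes betaglycan, the co-receptor that presents Tgfb2 to the signalling receptors. It was at 0.641, 0.857 and 1.31 FPKM in BDL, 1.73, 2.01 and 2.01 in BDL_H, 1.74, 2.63 and 2.55 in MDR and 2.02, 2.77 and 2.17 in MDR_H. BDL lay below the other 3 groups, and BDL_H and MDR_H meet at 2.01 and 2.02. MDR exceeded BDL by 0.77 ± 0.16 (2.46-fold, adjusted p = 0.0110), a call that held in 18 of 21 alternatives, and treated models gave 0.18 ± 0.16 (adjusted p = 0.474), which turned to -0.01 under median-of-ratios scaling and -0.06 under quantile normalization.

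Smad7 (chr18:75367529-75395935, plus strand), the inhibitory Smad that receptor signalling induces, was at 4.62, 2.11 and 2.70 FPKM in BDL, 1.08, 1.82 and 2.25 in BDL_H, 2.20, 3.21 and 2.37 in MDR and 3.26, 3.29 and 2.17 in MDR_H. The highest of the 12 is BDL replicate 1, where Tgfb1 and Tgfbr2 are lowest, and the groups overlap. MDR minus BDL was -0.17 ± 0.24 (adjusted p = 0.620), and 0.07 without BDL replicate 1. Treated models gave 0.54 ± 0.24 (adjusted p = 0.164).

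**Figure D3:**
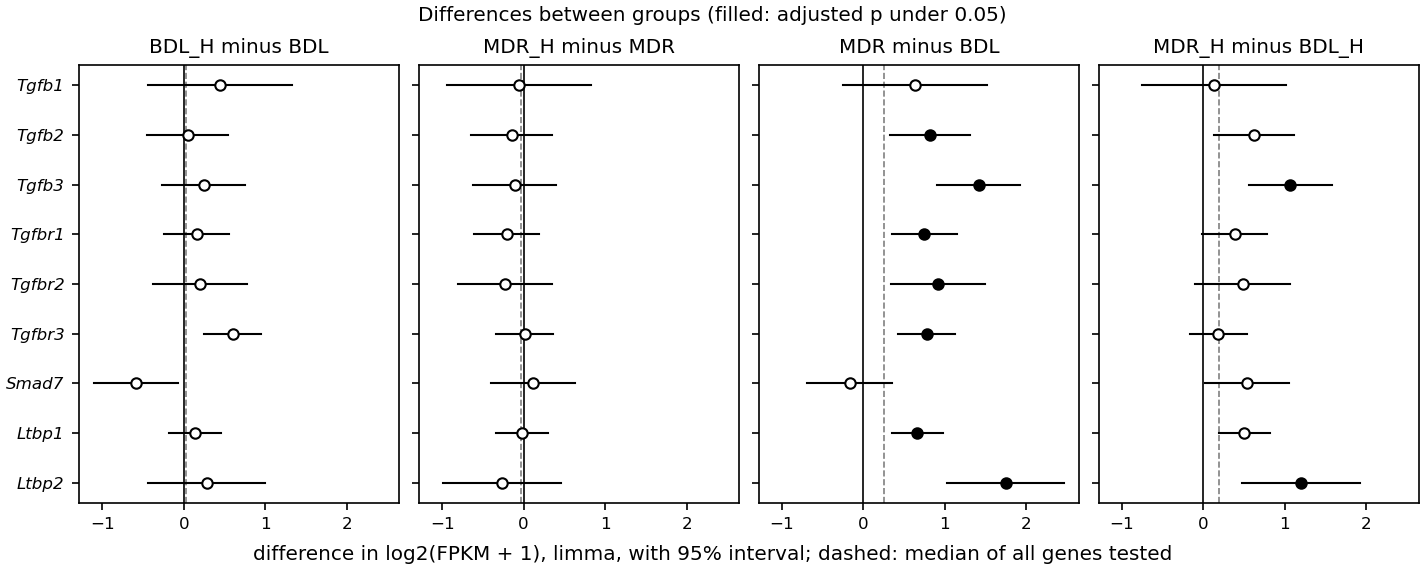
Difference in log2(FPKM + 1) between groups for each gene, with the 95% interval from limma, for HDCA in each model and for the models without and with HDCA. Filled points, 7 in MDR minus BDL and 2 in MDR_H minus BDL_H, have an adjusted p under 0.05, and the dashed line is the median of all tested genes.

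The scale of the comparison between models matters for the receptors. The median of all tested genes lay at 0.25 above 0 in MDR minus BDL and 0.20 in MDR_H minus BDL_H, and at -0.05 and -0.03 after median-of-ratios scaling. That scaling changed the calls over all genes from 1630 higher and 116 lower to 640 higher and 486 lower (5.92% and 4.50%) untreated, and from 795 and 101 to 333 and 372 (3.08% and 3.44%) treated. Of the members it kept Ltbp1, Ltbp2, Tgfb3, Tgfbr1 and Tgfbr3 in MDR minus BDL, and Tgfb3 in MDR_H minus BDL_H, and limma-voom on recovered reads called the same members, where it called 5.66% of genes higher and 3.62% lower untreated and 2.47% and 2.57% treated. Quantile normalization kept Ltbp2, Tgfb3 and Tgfbr1 untreated, against 5.07% of genes higher and 3.64% lower, and Tgfb3 treated, against 3.52% and 3.14%. The groups of 7 members did not overlap between untreated models, where 39.2% of all genes lay higher without overlap and 3.12% lower, and 7 did not overlap between treated models, against 32.4% and 4.55%.

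Single libraries also moved the count of 7. It was 4 without BDL replicate 1, with Tgfb2, Tgfbr1 and Tgfbr2 lost, 2 without MDR replicate 2, 3 without MDR replicate 3 and 6 without MDR replicate 1, the MDR library with Ddx3y at 10.5 FPKM. The count also fell below 7 in other fits without 1 library, since Tgfbr2 was called in only 4 of the 12 such fits. Without both BDL replicate 1 and BDL_H replicate 2 it was 6, with Tgfb2 lost, where 17.3% of genes were called higher and 3.34% lower, and the treated count was 1, Tgfb3, against 8.45% and 3.34%. Between untreated models Tgfb3 and Ltbp2 were called in each of these fits, which share the filter that both passed only through MDR-model libraries. The treated count of 2 fell to 0 without BDL_H replicate 1, BDL_H replicate 2, MDR_H replicate 2 or MDR_H replicate 3, to 1 without BDL replicate 2, BDL replicate 3, BDL_H replicate 3, MDR replicate 3 or MDR_H replicate 1, and was 3, with Ltbp1 added, without BDL replicate 1 or MDR replicate 1.

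HDCA moved no member past the threshold. In BDL, limma called 0 of 10805 genes in total (0.0%), with 243 genes (2.25%) at an unadjusted p under 0.05 and 334 by limma-voom, also with 0 calls. Tgfbr3 had the smallest p of the members. Its BDL_H mean was 2.05-fold its BDL mean, a difference of 0.60 ± 0.16 (95% interval 0.25 to 0.95, adjusted p = 1.00 by limma). It was the member whose BDL and BDL_H libraries did not overlap, where 3.43% of all genes lay higher without overlap and 1.59% lower. Over its 21 alternatives the difference stayed between 0.47 and 1.02, with adjusted p from 0.0956 to 1.00. Tgfbr3 held 5.49 ± 0.69% of the summed receptor FPKM in BDL (SD, n = 3) and 9.87 ± 2.77% in BDL_H.

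Smad7 pointed the other way in BDL, with a BDL mean 1.83-fold the BDL_H mean, a difference of -0.59 ± 0.24 (95% interval -1.10 to -0.07, adjusted p = 1.00). Without BDL replicate 1, its highest library, the difference was -0.34 ± 0.21, and -0.38 ± 0.23 without BDL_H replicate 2 as well. Its groups overlap at 2.11 FPKM in BDL replicate 2 and 2.25 in BDL_H replicate 3. The other members had differences from 0.05 ± 0.23 for Tgfb2 to 0.45 ± 0.40 for Tgfb1, each with an interval that spans 0, and Tgfb1 came to -0.07 without BDL replicate 1. The spread was wide enough that a rise in Tgfb1 of up to 1.33 on the log2 scale, or a fall of 0.44, lies within its interval.

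In MDR limma again called 0 genes (0.0%), with 61 (0.565%) at an unadjusted p under 0.05 and 79 by limma-voom, with 0 calls. Member differences ran from -0.27 ± 0.33 for Ltbp2 to 0.12 ± 0.24 for Smad7, with adjusted p = 1.00 throughout and all MDR and MDR_H groups overlapping, where 1.35% of genes lay higher without overlap and 4.6% lower. Tgfbr3 was at 0.01 ± 0.16, with a 95% interval of -0.34 to 0.36. HDCA dose was 100 mg/kg in both models, but the courses of 4 and 21 days differ. The difference of the HDCA effects was tested directly, and 0 genes were called, with 200 (1.85%) at an unadjusted p under 0.05 and 305 by limma-voom. Tgfbr3 gave -0.59 ± 0.23 (95% interval -1.09 to -0.10, adjusted p = 1.00) and Smad7 0.70 ± 0.33 (95% interval -0.03 to 1.44, adjusted p = 1.00). Since the change in a model difference with HDCA is this same contrast, the drop from 7 calls to 2 between untreated and treated models is not shown to be a difference.

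The same members had the highest means in every group, with Tgfb1 first in BDL_H and Tgfbr2 first in the other groups. Tgfbr2 and Tgfb1 were the 2 highest members by FPKM in all 4 groups and Tgfbr1 the third, and Tgfbr1 overlapped with Smad7 in BDL but lay apart from the member below it in the other groups. In BDL, Smad7 lay apart from and above Tgfbr3, Tgfb3 stood apart from Tgfb2, and Tgfb2, Ltbp2 and Ltbp1 at the bottom were not separable. In MDR, Ltbp2 and Tgfb3 at means of 3.92 ± 2.37 and 3.86 ± 1.65 FPKM (SD, n = 3) took the places below Tgfbr1, ahead of Smad7 at 2.59 ± 0.54 and Tgfbr3 at 2.30 ± 0.49, with neighbours in that order overlapping. In BDL the lowest Tgfb1 library, replicate 1, fell within the Tgfbr1 range. FPKM divides by the authors' gene length, so an error in a gene model shifts the order. Such an error does not move a ratio of FPKM between groups. It can change whether a gene passes the filter of 1 FPKM. It can also change the size of a difference in log2(FPKM + 1), and so its test. For Tgfb1 the values imply 2200 bases, against 5042 exonic bases in GENCODE M21. For Tgfbr2 they imply 4797 against 8187, and for Ltbp1 7826 against 10691. The places of these genes in the order are thus uncertain.

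Across the 12 libraries Tgfb2, Tgfb3 and Ltbp2 were the most alike, and Smad7 was the least like the rest. Pearson r of log2(FPKM + 1) was 0.988 for Tgfb3 with Ltbp2, 0.954 for Tgfb2 with Ltbp2 and 0.949 for Tgfb2 with Tgfb3, and it was 0.887 to 0.926 for Ltbp1 with these 3. Tgfb1 stood further off, from 0.525 with Tgfb3 to 0.835 with Tgfbr2, and r of Smad7 with the others ran from -0.349 to 0.259. The points share the group structure and library scaling, so these are descriptions. Of 8710 genes with a mean of at least 2 FPKM, the pattern most like Tgfb1 was that of Plekho2, Tln1 and Flna (r = 0.982, 0.982 and 0.975), and that most like Tgfb2 was Bex3, Cx3cr1 and Pmepa1 (0.979, 0.973 and 0.973). Tgfb3 was closest to Clstn1, Ccdc80 and Cd24a (0.985, 0.984 and 0.983) and Ltbp2 to Ccdc80, Bicc1 and P3h3 (0.991, 0.989 and 0.988). Ltbp1 was closest to Sdccag8, Cst3 and Cdk5rap1 (0.975, 0.973 and 0.972). Tgfbr1 was closest to Chtop, Fundc2 and Oxct1 (0.969, 0.969 and 0.967), Tgfbr2 to Efnb1, Slc43a2 and Ehd4 (0.994, 0.984 and 0.984), and Tgfbr3 to Itga1, Tmem204 and Chst15 (0.960, 0.955 and 0.944). Smad7 had no close partner, with Ipmk at 0.854, Manea at 0.848 and Phf14 at 0.839.

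Markers of several liver cell types were called between the models too, where 15.1% of all genes were higher and 1.07% lower untreated and 7.36% and 0.935% treated. Of 13 markers of stellate cells and fibroblasts, 11 were called higher in MDR than in BDL and 10 between treated models, and their summed FPKM was 62.9 to 116 in BDL, 120 to 165 in BDL_H, 237 to 451 in MDR and 299 to 388 in MDR_H. Of 10 endothelial markers, 6 and 0 were called higher, at sums of 30.1 to 132, 123 to 141, 152 to 189 and 155 to 198. Of 12 macrophage markers, 2 and 1 were called higher, at 368 to 802, 384 to 1060, 952 to 1880 and 1251 to 1566. Of 7 tested cholangiocyte markers, 3 and 2 were called higher, and of 8 hepatocyte markers 0 were higher and 1, Apoa1, was lower in MDR. Markers of T and NK cells (2 of 3 tested higher), B cells (2 of 2) and platelets (1 of 1) were also called between untreated models, and 1, 0 and 0 of these between treated models. In BDL-model libraries the T and NK list summed to at most 2.74 FPKM and the B cell list to at most 2.11. Not all tested genes of these 2 lists can thus have passed the filter through BDL-model libraries alone. The marker counts are a description and no support. Of 3 tested neutrophil markers 0 were called untreated and 1, Retnlg, was lower treated, and of 3 mesothelial markers 1, Krt19, was higher untreated and 1, Msln, lower treated. Krt19 is also in the cholangiocyte list and is counted in both. It alone of the tested mesothelial markers lay above 0 untreated (list median -0.27). Without both BDL replicate 1 and BDL_H replicate 2, 11 and 9 stellate and fibroblast, 7 and 1 endothelial, 2 and 3 macrophage and 3 and 2 cholangiocyte markers were called higher. In these fits macrophage markers went both ways, with 1 called lower untreated and 2 treated. BDL replicate 1 held the lowest of the BDL sums in the stellate, endothelial, macrophage and cholangiocyte lists. Ly6g, Mpo and Camp of neutrophils and Gp9 of platelets were at 0 in 6 or more libraries. In bulk liver more cells of a type and more RNA per cell cannot be told apart, and the part of these markers in the members' differences was not tested. Dcn is both a marker of fibroblasts and a gene of the inhibitor list below.

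Other genes of the pathway were taken from 6 lists that leave out the 9 members, 92 genes tested in all. Of these 28 were called higher and 4 lower in MDR than in BDL, with a median of 0.35 against 0.25 for all genes tested, of which 15.1% were called higher and 1.07% lower. Between treated models 11 were called higher and 4 lower (median 0.17 against 0.20), beside 7.36% and 0.935% of all genes. These shares are the background for each list below. Some list genes, among them Bambi and Ltbp3, passed the filter only through the MDR-model libraries, so the list counts are a description and no support. Without both BDL replicate 1 and BDL_H replicate 2 the counts were 25 and 8 untreated (median 0.24) and 9 and 7 treated (median 0.04), with 17.3% and 3.34% and then 8.45% and 3.34% of all genes called. Under HDCA, limma called 0 of the 92 in BDL, with 13 at an unadjusted p under 0.05 and 16 by limma-voom, and 0 in MDR, with 0 and 0; limma-voom also called 0 in each.

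Of 17 tested latency and activation genes, 9 were called higher and 0 lower in MDR than in BDL (median 0.60), and 8 higher without both libraries that stand apart, where 2 were higher and 0 lower between treated models. Mmp2, a matrix protease that can release latent TGF-beta, was at 2.22, 1.60 and 1.90 FPKM in BDL and 6.29, 16.5 and 11.5 in MDR, a difference of 2.01 ± 0.35 (adjusted p = 0.00554). Plat, the tissue plasminogen activator, differed by 1.92 ± 0.26 (adjusted p = 0.00240), and Ltbp3, a binding protein of latent TGF-beta, by 1.30 ± 0.24 (adjusted p = 0.00680). In the BDL model Ltbp3 reached 1 FPKM only in BDL_H replicates 1 (1.06) and 3 (1.21). It thus passed the filter only through MDR-model libraries, and its test is a description and no support. Between treated models Mmp2 (1.60) and Plat (1.37) were higher and Furin, the convertase that cleaves the ligand precursor, was lower (-0.41, adjusted p = 0.0448), of 17 tested. Itgb6, Itgb8, Mmp9 and Tll1 were under the filter.

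Of 11 tested receptors and co-receptors of the superfamily, 4 were called higher untreated (15.1% of all genes) and 1 treated, a share near the 7.36% of all genes, and 0 lower (medians 0.34 and 0.30). Without both libraries that stand apart these were 3 and 1, with 1 lower in each. Eng, the endothelial co-receptor endoglin, was higher in MDR by 1.29 ± 0.36 (adjusted p = 0.0359), and Acvrl1, the endothelial type I receptor ALK1, by 0.93 ± 0.27 (adjusted p = 0.0392). Bambi, a decoy receptor without a kinase, was at 0.462, 0.571 and 0.49 FPKM in BDL and 0.964, 1.90 and 1.47 in MDR, higher by 0.68 ± 0.14 untreated (adjusted p = 0.0104) and 0.63 ± 0.14 treated (adjusted p = 0.0259). It was at most 0.626 FPKM in BDL_H too. Bambi thus passed the filter only through MDR-model libraries, and its tests are a description and no support. Eng is also in the endothelial list. Acvr2b, Bmpr1b, Tgfbr3l and Cd109 were under the filter.

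Of Smads and their nuclear partners, Smad6, the inhibitory Smad of BMP signalling, was higher in MDR by 0.69 ± 0.13 (adjusted p = 0.00854) and Smad5, a BMP-pathway Smad, by 0.57 ± 0.14 (adjusted p = 0.0233), 2 of 11 tested beside 15.1% of all genes, and 0 were called between treated models. Without both libraries that stand apart 2 were higher and 1 lower untreated. The list medians were 0.12 and 0.14, under those of all genes. Smad6 was thus called where its relative Smad7 was not, but the difference between these genes was not tested.

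Of 18 tested feedback genes and inhibitors, 4 were called higher untreated (15.1% of all genes) and 5 treated (7.36%), and 0 lower (medians 0.16 and 0.19). Without both libraries that stand apart these were 5 and 4. The matrix proteoglycans Bgn and Dcn, which bind TGF-beta, had the largest differences. Bgn was at 21.6, 49.9 and 59.4 FPKM in BDL and 111, 254 and 205 in MDR, higher by 2.13 ± 0.37 (adjusted p = 0.00569), and Dcn by 1.82 ± 0.24 untreated (adjusted p = 0.00213) and 1.30 ± 0.24 treated (adjusted p = 0.0132). Pmepa1, a TGF-beta-induced inhibitor of Smad signalling, was higher by 1.29 ± 0.27 untreated (adjusted p = 0.0116 by limma) and 1.09 ± 0.27 treated (adjusted p = 0.0357).

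Targets went in both directions, with 6 of 26 tested called higher and 4 lower in MDR than in BDL, and 0 higher and 2 lower between treated models (medians 0.54 and 0.06), where 15.1% and 1.07% of all genes were called untreated and 7.36% and 0.935% treated. Without both libraries that stand apart 4 were higher and 4 lower untreated, and 0 and 4 treated. Junb, an AP-1 subunit, was at 45.0, 57.7 and 47.9 FPKM in BDL and 22, 22.3 and 17.8 in MDR, with differences of -1.24 ± 0.23 untreated (adjusted p = 0.00691) and -1.86 ± 0.23 treated (adjusted p = 0.00286). Postn, a matrix protein of activated fibroblasts, was higher in MDR by 1.26 ± 0.28 (adjusted p = 0.0141).

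**Figure D4:**
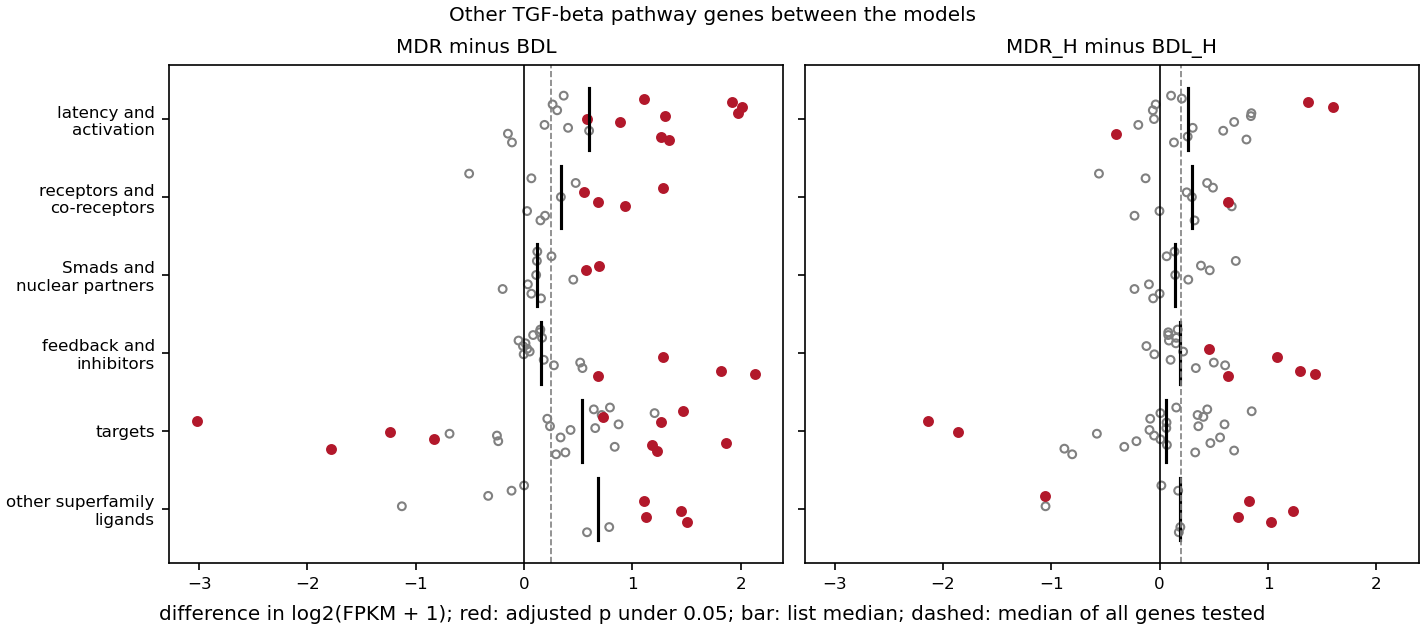
Difference in log2(FPKM + 1) between the models, one point per tested gene of each of the 6 lists, without HDCA (left) and with HDCA (right). Red points have an adjusted p under 0.05, the bar is the median of a list, and the dashed line is the median of all tested genes. In the target list Junb lies at -1.24 and Postn at 1.26 without HDCA.

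Under HDCA the genes of these lists with the smallest p stayed above the threshold, at an adjusted p of 1.00 each. In BDL they included Inhbb, an activin subunit gene, at 0.80 ± 0.20, Id1, a BMP-responsive inhibitor of differentiation, at -0.71 ± 0.22, Lrrc32, a cell-surface anchor of latent TGF-beta, at 0.53 ± 0.17, and Acta2, the smooth muscle actin of myofibroblasts, at 1.23 ± 0.45. Inhbb was at 1.2, 1.98 and 2.02 FPKM in BDL and 2.69, 5.58 and 3.28 in BDL_H, without overlap, and Acta2 overlapped at 0.711, 3.47 and 4.55 against 7.39, 3.49 and 13.6. Dcn (0.61), Fbn1 (0.68), Eng (0.77), Bmp5 (0.44), Fst (-0.46), Bmpr2 (0.23), Smad6 (0.17) and Smad9 (-0.27) complete the 2 genes per list. Without BDL replicate 1, Acta2 came to 0.72, Fbn1 to 0.44, Eng to 0.22, Lrrc32 to 0.35, Bmpr2 to 0.075 and Smad9 to -0.038. Without BDL_H replicate 2 as well, Dcn came to 0.36, Inhbb to 0.40, Fst to -0.20 and Smad9 to 0.22. In MDR, Plau (-0.51), Plat (-0.33), Acvr1b (-0.25), Tgfbrap1 (-0.08), Smad9 (0.31), Smad6 (-0.14), Skil (0.22), Smurf1 (-0.22), Cdkn1a (0.88), Fn1 (-0.25), Bmp4 (-0.26) and Gdf15 (-0.57) were those genes.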

How the data were processed

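Per the labels' protocols, liver RNA was taken up in TRIzol and made into polyA libraries with a VAHTS kit. Among the tools in the submitters' processing notes are the aligner HISAT2 2.0.5 and the counter featureCounts 1.5.0-p3, with DESeq2 1.20.0, fastp and CASAVA 1.8, and the build is GRCm38. The sources used here give no annotation release or strand setting. The authors deposited 1 table of FPKM values. FPKM is no count, so values were tested as log2(FPKM + 1), a scale that compresses changes of low genes. Genes with at least 1 FPKM in at least 3 of 12 libraries, 10805 in all, were fitted in limma 3.58.1 (R 4.3.3) with trend and 4 group means. Tests were two-sided, adjusted by Benjamini-Hochberg over all genes tested, and called at an adjusted p under 0.05.

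FPKM steps gave whole reads, within a tolerance of 0.02, for 16968 of 16970 genes (all but Fn1 and Mmp9), and limma-voom on those reads was an alternative, as were other scalings, pseudocounts and filters, array weights, a replicate block and left-out libraries. Every pair of libraries differed beyond sampling noise, with a mean chi-square of at least 32.4 a gene, so each was counted as 1 sample. Genes named beside the members are, for each list, up to 3 called genes with the smallest p in a comparison, or 2 uncalled ones under HDCA; Apoa1, Retnlg, Krt19, Msln, Gpihbp1 and the Y-linked and Abcb4 checks were chosen after their values were seen. A gene that this rule names is not reported here. The members and lists were chosen with earlier results of these data known. The code was tested on simulated data. RefSeq promoters (GRCm38.p6) matched 6 of 9 members.

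Groups share replicate numbers in the titles, whose meaning the labels leave unsaid. After group means were removed, libraries with the same number correlated at 0.438, 0.312 and 0.548 between MDR and MDR_H. From these values alone the numbers may mark pairs there, but the main tests used no pairing. Libraries with the same number correlated at -0.43 to 0.431 between BDL and BDL_H, -0.244 to -0.149 between BDL and MDR and -0.228 to -0.034 between BDL_H and MDR_H. The numbers were not read as pairs there.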

Additional observations from a re-analysis of the deposited data

Results flagged for a closer look

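Postn, a matrix gene of the target list, lay higher with HDCA in BDL and lower with HDCA in MDR, without overlap of the groups in either model, though neither difference passed the threshold. Of all genes, 3.43% lay higher without overlap in BDL and 4.6% lower in MDR. It was at 0.876, 2.61 and 2.47 FPKM in BDL against 3.59, 3.25 and 4.76 in BDL_H, and at 5.36, 6.90 and 5.47 in MDR against 2.46, 4.89 and 5.30 in MDR_H. The lowest MDR value, 5.36, and the highest MDR_H value, 5.30, nearly touch, and the difference there was -0.45 ± 0.28 (adjusted p = 1.00 by limma), against 0.75 ± 0.28 (adjusted p = 1.00) in BDL. No separate permutation of this difference was run. In limma the difference of the HDCA effects was -1.20 in log2(FPKM + 1), which did not pass the threshold over all genes (adjusted p = 1.00).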

How the results depend on the processing

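Limits: 3 libraries a group, a pair of BDL-model libraries that stand apart, a model difference that depends on scaling, and low reads for Tgfb2 and Ltbp1. The array-weights fit gave a convergence warning. HDCA called 0 genes under each setting, except 1 gene, Gpihbp1, in BDL with array weights. Of results for single genes, 1851 fits kept direction and side, 146 kept direction but lost the call, 5 gained one and 39 changed sign; where no construction shows it, the cause was not tested.

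Genes called in MDR minus BDL (1746) came to 616 at a mean FPKM of at least 5, 941 with quantile normalization, 1126 with median-of-ratios scaling, 1003 with limma-voom, 4947 with array weights, 729 with only the groups compared, and 489 to 2346 with libraries left out. Members called (7) came to 1, 3 and 2 at a mean of at least 5 (where low members are not tested), with quantile normalization and with only the groups compared, and to 2 to 7 with libraries left out. Pathway genes (32) came to 16, 53 and 18 at a mean of at least 5, with array weights and with only the groups compared, and to 13 to 34 with libraries left out.

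In MDR_H minus BDL_H, genes called (896) came to 436 at a mean of at least 5, 545 with limma-voom, 2750 with array weights, 542 with only the groups compared and 167 to 1550 with libraries left out. Members called (2) came to 1 without a filter, 0 at a mean of at least 5, 1 with quantile normalization, median-of-ratios scaling or limma-voom, 5 with array weights, and 0 to 3 with libraries left out. Pathway genes (15) came to 9 without a filter, 6 at a mean of at least 5, 7 with limma-voom, 34 with array weights and 2 to 21 with libraries left out.

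With the replicate number as a block, 1351 genes were called in MDR minus BDL, with Tgfbr2 lost among members (adjusted p = 0.0551), and 589 in MDR_H minus BDL_H, where both member calls held. The block called 0 genes for HDCA in MDR and 0 for HDCA in BDL. It fits replicate effects shared by all 4 groups, so it is not a paired test within MDR, and no such test was run. Elsewhere the libraries share only a number.

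Signs changed only for uncalled differences. In HDCA in BDL, Tgfb2 came to -0.042 with quantile normalization and -0.036 with array weights, and Smad9 to 0.067 with array weights. In HDCA in MDR, array weights gave 0.0095 for Tgfb2 and 0.055 for Tgfb3, and Ltbp1 came to 0.013 with quantile normalization, 0.0038 with median-of-ratios scaling and 0.0073 with limma-voom. For the difference of HDCA effects Tgfb2 came to 0.046 with array weights, and Smad7 in MDR minus BDL to 0.11. In MDR_H minus BDL_H, Tgfb1 came to -0.037 with quantile normalization, -0.12 with median-of-ratios scaling and -0.10 with limma-voom, and Tgfbr3 to -0.062 and -0.0089 with the first pair. With libraries left out, HDCA in BDL ranged from -0.072 to 0.79 for Tgfb1, -0.081 to 0.15 for Tgfb2, -0.11 to 0.43 for Tgfbr2 and -0.52 to 0.22 for Smad9. HDCA in MDR ranged from -0.20 to 0.052 for Tgfb1, -0.34 to 0.077 for Tgfb2, -0.30 to 0.16 for Tgfb3, -0.12 to 0.085 for Tgfbr3, -0.16 to 0.069 for Ltbp1, -0.60 to 0.095 for Ltbp2 and -0.18 to 0.0041 for Tgfbrap1. Difference of HDCA effects ranged from -0.84 to 0.019 for Tgfb1 and -0.39 to 0.031 for Tgfb2. MDR minus BDL ranged from -0.35 to 0.074 for Smad7, and MDR_H minus BDL_H from -0.21 to 0.41 for Tgfb1.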

Other observations

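Ligands of the wider TGF-beta superfamily also differed between the models. Of 10 tested, 4 were called higher in MDR than in BDL and 0 lower (median 0.68 against 0.25 for all genes tested, of which 15.1% were called higher). Without both BDL replicate 1 and BDL_H replicate 2 these were 4 and 2. Bmp5 was at 0.573, 1.08 and 1.12 FPKM in BDL and 3.68, 5.90 and 3.86 in MDR, a difference of 1.5 ± 0.18 (adjusted p = 0.00181 by limma). Gdf10, also called Bmp3b, differed by 1.45 ± 0.25 (adjusted p = 0.00574) and Bmp6, the iron-sensing ligand of liver endothelium, by 1.13 ± 0.18 (adjusted p = 0.00430). Between treated models 4 were higher and 1 lower (median 0.18 against 0.20, with 7.36% of all genes called higher and 0.935% lower), and 3 and 2 without that pair. Bmp5 (1.03) and Gdf10 (1.23) were among those higher, and Inhbb, at 2.69, 5.58 and 3.28 FPKM in BDL_H and 1.18, 1.35 and 1.27 in MDR_H, was lower by 1.06 on the log2 scale (-1.06 ± 0.20, adjusted p = 0.0163). Inhba, Bmp7, Bmp10 and Gdf11 were under the filter.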
